A study of Mus musculus with 6 samples.

Results

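Some of the genes described here build the ceramides of the skin barrier or carry them to the lamellar granules. These are the organelles from which granular keratinocytes release barrier lipids. Others break ceramide down, handle sphingosine 1-phosphate or encode lipases of the outer layers. Of 39 genes listed, 36 had a probe set that names that gene alone and were measured, out of 30063 genes on the arrays, while Sptssa, Ormdl2 and Ormdl3 share a probe set with another gene. The genes were chosen by their roles in this pathway, with earlier results of these data known. The brightest probe set on average stood for a gene with several. Expression arrays measured RNA from the epidermis of mouse embryos at E18.5, shortly before birth. The 3 arrays called Rptor cKO (arrays 1 to 3) came from embryos with a conditional knockout of Rptor, which encodes Raptor, the subunit through which mTORC1, a growth-controlling kinase complex, binds its substrates. Wild-type littermates gave the other 3 arrays (arrays 4 to 6). Embryos were sorted by appearance and then genotyped, and sheets were lifted off the dermis with ammonium thiocyanate. No source used here names the promoter that drove the deletion.

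Ceramide synthesis begins in the endoplasmic reticulum, where serine palmitoyltransferase joins serine to a fatty acid. A reductase, a ceramide synthase and a desaturase or hydroxylase then complete the molecule. In the epidermis, ceramides with ultra-long acyl chains are omega-hydroxylated and esterified to linoleate, which gives acylceramide. Glucosylated ceramide and sphingomyelin are loaded into lamellar granules, turned back to ceramide outside the cell and partly bound to the cornified envelope. Inherited loss of several of these genes causes ichthyosis in humans.

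All values below are log2 values from RMA, the authors' normalization of the arrays, and all differences are Rptor cKO minus wild type. A gene is said to have fallen or risen where limma's test gave an adjusted p under 0.05 after Benjamini-Hochberg adjustment over all 30063 genes. Of the genes tested, 9.60% passed. The split was 1791 lower and 1095 higher, so that 62.1% of the passing genes were lower. That share was 51.8% after quantile normalization and 68.5% with array medians subtracted. Rptor itself read 6.54, 6.82 and 6.72 on the Rptor cKO arrays and 6.98, 7.46 and 7.0 on the wild-type arrays. The groups did not overlap, but the difference of -0.46 (SE 0.15) missed the threshold (adjusted p = 0.0988), and no source used here says where in the gene the probe set lies relative to the deleted part. By Xist and Y-linked genes, Rptor cKO arrays 1 and 3 came from females, and Rptor cKO array 2 and the 3 wild-type arrays from males. Krt5 and Krt14 of the basal layer and Krt1 and Krt10 of the spinous layer all read 9.81 or more on every array, so defining markers of keratinocytes were present. With 3 arrays a group, precision is limited throughout.

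Of the 36 genes, 20 fell, 2 rose and 14 did not pass. Over all genes tested, 5.96% fell and 3.64% rose. The median difference of the 36 genes was -0.96, against 0.05 over all genes tested, and 29 of 36 lay below 0. Of the genes that fell, 18 did so by at least 2-fold and 7 by at least 4-fold. The 4-fold count was 2, Acer1 and Lipk, without wild-type array 4 and likewise without Rptor cKO array 2, where the 2-fold count was 8. All 3 Rptor cKO arrays lay below all 3 wild-type arrays for 25 genes and above them for 5, where 12.5% and 16.5% of all genes did so. Calls depended on Rptor cKO array 2, without which falls over all genes went from 1791 to 623. That fit set female Rptor cKO arrays against male wild-type arrays. In it none of the 36 genes rose. Their count of falls was 9 (limma, 23 lower and 3 higher at an unadjusted p under 0.05). It was 16 without Rptor cKO array 1, and with male arrays alone, which leave 1 Rptor cKO array taken to vary like the wild-type arrays, 11 fell and none rose (limma, 24 lower and 3 higher at an unadjusted p under 0.05). An ordinary linear model, which does not share the variance between genes, called none of the 36 (19 lower and 5 higher at an unadjusted p under 0.05). With limma, the 9 genes that fell whichever single array was left out were Abhd5, Acer1, Acer2, Cyp4f39, Lipk, Lipm, Sgpp1, Sphk1 and Sptlc1.

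**Figure D1:**
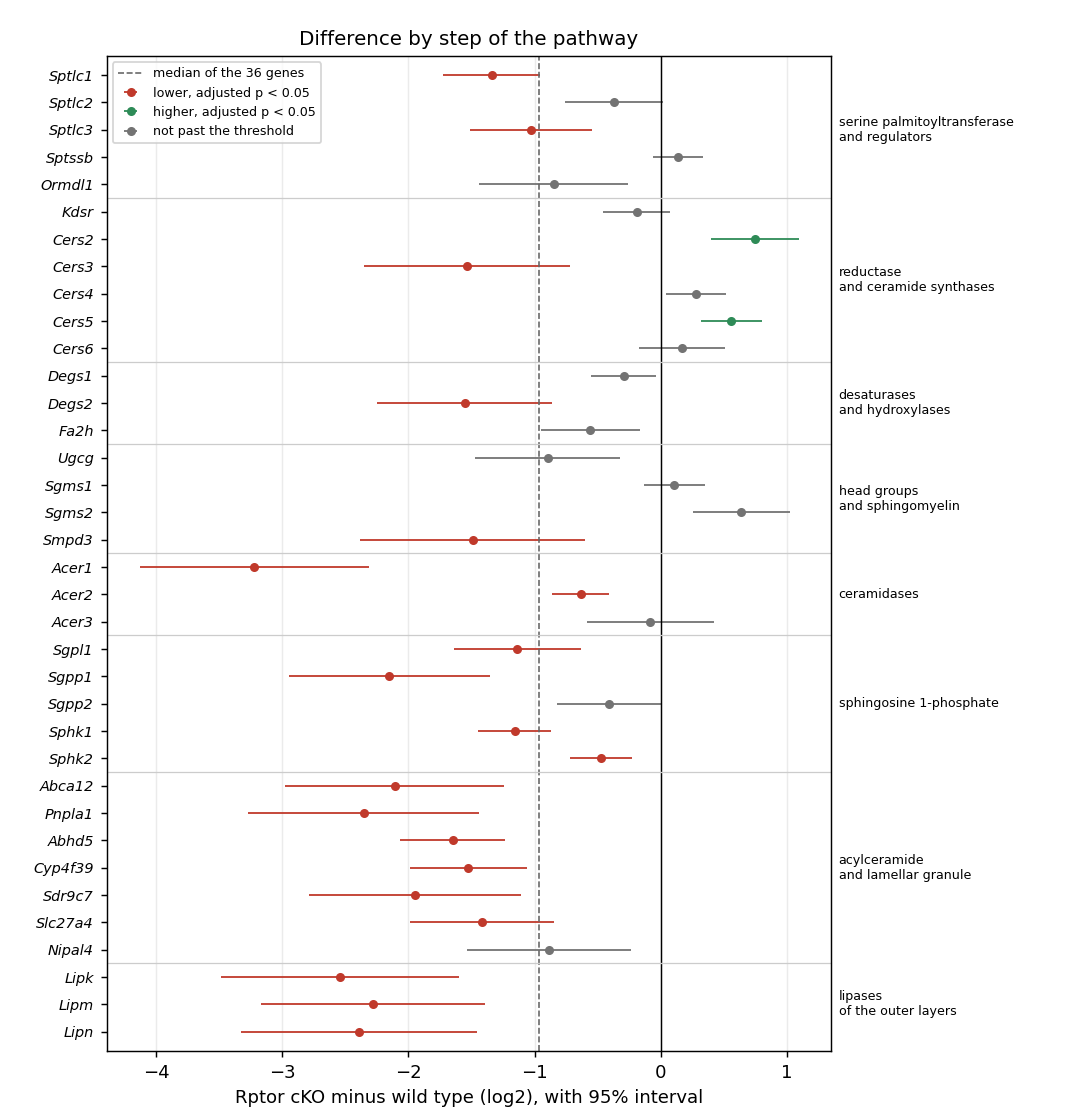
Log2 difference of each of the 36 genes between Rptor cKO and wild type (positive where Rptor cKO is higher), with its 95% interval from limma, in the order of the pathway from top to bottom. The 20 genes that fell are red, the 2 that rose are green, and the dashed line marks the median of -0.96. The 3 lipases at the bottom lie between -2.54 and -2.28, while Cers2 and Cers5 are the green points to the right of 0.

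The falls were spread unevenly over the pathway. All 3 lipases of the outer layers fell (median -2.39), as did 6 of 7 acylceramide and lamellar granule genes (median -1.65). Of the 5 genes that handle sphingosine 1-phosphate 4 fell (median -1.14), and of the 3 alkaline ceramidases 2 fell (median -0.63). The earlier steps held fewer falls. They numbered 2 of 5 in serine palmitoyltransferase and its regulators (median -0.85) and 1 of 3 among desaturases and hydroxylases (median -0.56). Among the head group and sphingomyelin genes 1 of 4 fell (median -0.39). In the reductase and ceramide synthase step 1 of 6 fell and 2 rose (median 0.23). Whether the steps differ from each other was not tested.

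Upstream sequences are shown for the 3 falling genes with a single start that stand among the 4 smallest p-values, and for Cers5, which rose and was added after its values were seen. The fourth, Sphk1, has 5 starts in the table of promoters used and is not shown. Each run holds the 250 bases before the start of transcription, 5′ to 3′ on the gene's strand, from RefSeq, build GRCm38.p6. The run of Sptlc1 partly lies within the span given for that gene below, which ends at 53377417. Capitals mark matches on either strand to 7 motifs. These were the E-box CACGTG, known as a site of the MiT/TFE and MYC families, the AP-1 motif TGANTCA, the motif AACNNGTT of the grainyhead-like factors and the C/EBP motif TTNCNNAA. The others were the CCAAT box, the GC box GGGCGG of the Sp family, and the TATA box with its core TATAAA. Matches of different motifs may overlap.
Sptlc1 (chr13:53377362-53377611, minus strand): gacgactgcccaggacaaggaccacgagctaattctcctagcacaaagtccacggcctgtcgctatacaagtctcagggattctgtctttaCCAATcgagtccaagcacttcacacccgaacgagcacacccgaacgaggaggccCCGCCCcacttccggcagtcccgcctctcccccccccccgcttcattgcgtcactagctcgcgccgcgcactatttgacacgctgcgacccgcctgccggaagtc
Acer1 (chr17:56982127-56982376, minus strand): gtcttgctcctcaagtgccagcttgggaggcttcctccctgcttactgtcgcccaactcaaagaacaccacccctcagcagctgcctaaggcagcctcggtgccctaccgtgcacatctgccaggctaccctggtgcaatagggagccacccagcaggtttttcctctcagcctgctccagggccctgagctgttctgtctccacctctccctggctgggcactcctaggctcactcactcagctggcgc
Abhd5 (chr9:122351366-122351615, plus strand): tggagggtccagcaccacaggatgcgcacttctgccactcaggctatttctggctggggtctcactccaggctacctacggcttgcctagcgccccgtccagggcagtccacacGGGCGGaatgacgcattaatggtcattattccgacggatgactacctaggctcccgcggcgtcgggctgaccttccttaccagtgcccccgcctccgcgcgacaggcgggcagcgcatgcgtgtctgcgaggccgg
Cers5 (chr15:99772516-99772765, minus strand): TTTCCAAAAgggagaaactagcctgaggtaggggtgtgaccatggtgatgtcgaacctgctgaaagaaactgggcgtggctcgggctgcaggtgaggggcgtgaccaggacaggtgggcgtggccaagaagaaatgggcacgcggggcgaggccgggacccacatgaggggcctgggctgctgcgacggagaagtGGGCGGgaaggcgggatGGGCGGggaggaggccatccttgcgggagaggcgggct
The Acer1 window held no match to any of the 7 motifs and that of Abhd5 held 1, a GC box. Sptlc1 had a CCAAT and a GC box, and Cers5 had 2 GC boxes and 2 overlapping C/EBP matches. Promoters were available for 33 of the 36 genes. The 23 windows of genes that fell came from 18 genes, and the 25 windows of the other genes from 15 genes. Genes with several starts thus count more than once. The GC box occurred in 34.8% of windows of genes that fell and in 60% of windows of the others, against 32.7% of all 32851 windows. The E-box occurred in 8.70% of windows of genes that fell, both of them starts of Sphk1, in 20% of windows of the others and in 6.02% of all windows. AP-1 matches occurred in 13% of windows of genes that fell, in 16% of windows of the others and in 6.75% of all windows. The C/EBP motif occurred in 30.4% of windows of genes that fell, in 36% of windows of the others and in 36.8% of all windows, and the CCAAT box in 30.4%, 28% and 33.8% of these. Grainyhead-like matches were found in 0 of 23 windows of genes that fell, in 1 of 25 windows of the others and in 3.64% of all windows. The TATA core was found in 2 of 23 windows of genes that fell (Sdr9c7 and 1 start of Sphk1), in 0 of 25 windows of the others and in 12.4% of all windows. These matches are letters in a window and were not tested as binding sites.

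Serine palmitoyltransferase is a heterodimer of Sptlc1 with Sptlc2 or Sptlc3. Sptlc1 (chromosome 13, 53332748 to 53377417), the obligate subunit, read 6.82, 6.76 and 7.04 on the Rptor cKO arrays and 8.54, 7.88 and 8.21 on the wild-type arrays. The groups lay apart, and Sptlc1 fell 2.53-fold (-1.34, SE 0.17, adjusted p = 0.00363). Sptlc3 (chromosome 2, 139493913 to 139637061), a catalytic subunit found in skin, read 5.37, 5.07 and 5.95 in Rptor cKO, against 6.49, 6.31 and 6.68 in wild type. It fell 2.04-fold (-1.03, SE 0.21, adjusted p = 0.0198). The call of Sptlc3 was lost without Rptor cKO array 1 (-0.98, adjusted p = 0.0566), Rptor cKO array 2 (-0.83, adjusted p = 0.0702) or wild-type array 6 (-0.94, adjusted p = 0.0736).

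Sptlc2, the other catalytic subunit, differed by -0.37 (SE 0.17, adjusted p = 0.235), and its groups overlapped. It passed only without wild-type array 5 (-0.57, adjusted p = 0.0307). Ormdl1, of the family that restrains the enzyme when ceramide is plentiful, read 4.53, 4.42 and 4.65 in Rptor cKO, against 6.08, 5.07 and 4.99 in wild type. Its Rptor cKO arrays all lay lower, with wild-type array 4 far above the other wild-type arrays, and the difference of -0.85 did not pass (adjusted p = 0.0827). Without wild-type array 4 it was smaller, at -0.50, and passed (adjusted p = 0.0341). Sptssb, a small activating subunit, read from 3.46 to 3.69 and was dimmer on each of the 6 arrays than that array's negative control median, so its difference of 0.14 (adjusted p = 0.405) was not interpreted. The 3 probe sets shared with another gene stayed out of all counts. That of Sptssa, the other small subunit, averaged 8.05 ± 0.22 on the Rptor cKO arrays, against 8.58 ± 0.20 on the wild-type arrays (SD, n = 3 each). Those of Ormdl2 and Ormdl3 differed by -0.70 and -0.26. In all 3 the Rptor cKO arrays lay below the wild-type arrays.

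**Figure D2:**
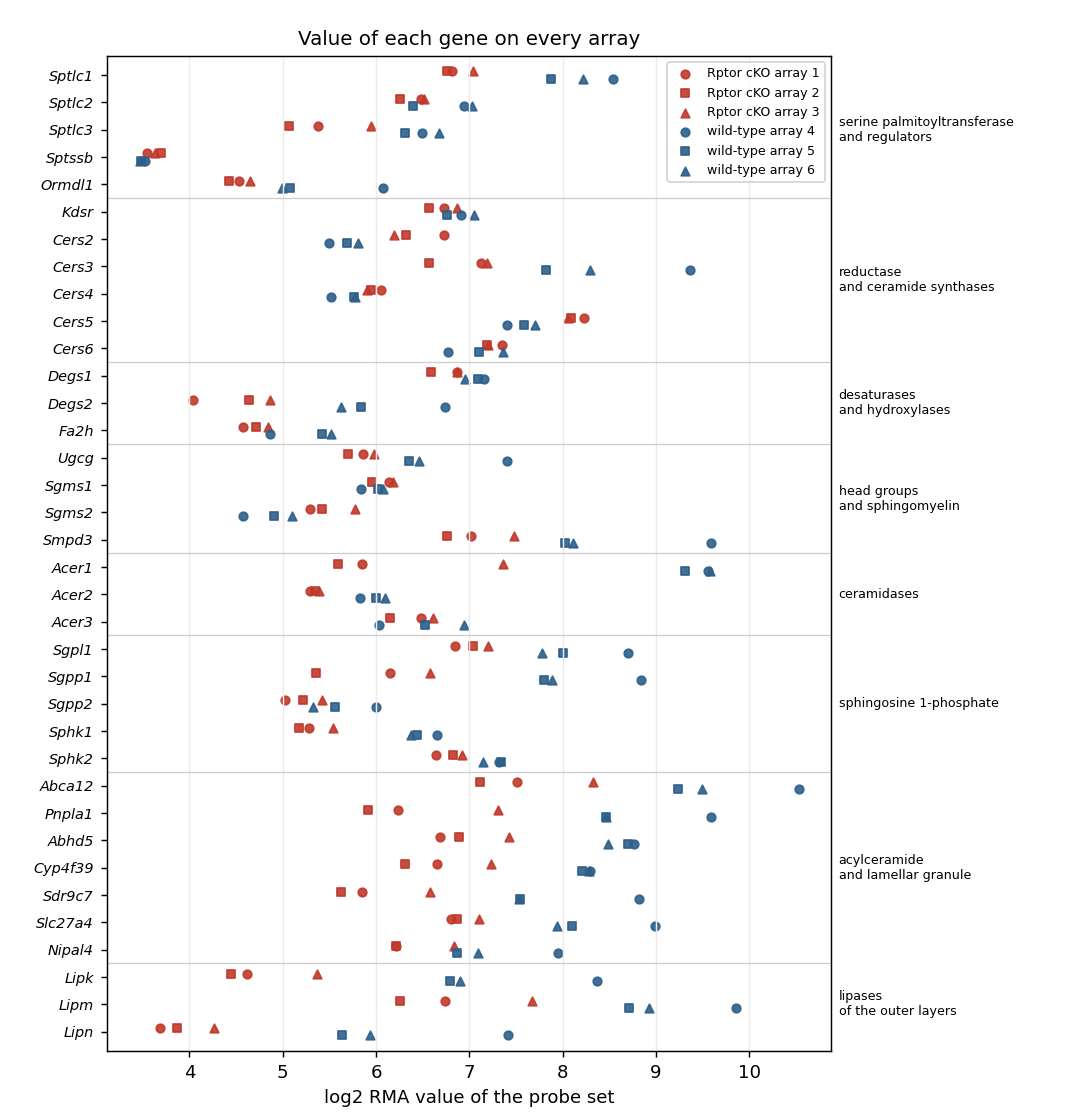
Log2 RMA value of each of the 36 genes on each of the 6 arrays, in pathway order, with Rptor cKO arrays in red and wild-type arrays in blue and a symbol for each array. Groups lie apart with Rptor cKO lower for 25 genes. Rptor cKO array 3 and wild-type array 4 are often the highest of their group.

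Kdsr, the reductase that follows, differed by -0.19 (SE 0.12, adjusted p = 0.379) with overlapping groups. The ceramide synthases, which set the length of the acyl chain, moved in both directions. Cers3 (chromosome 7, 66733118 to 66823692), which uses the ultra-long chains of barrier ceramides, read 7.13, 6.56 and 7.19 in Rptor cKO, against 9.37, 7.82 and 8.30 in wild type. It fell 2.90-fold (-1.54, SE 0.36, adjusted p = 0.0321). The groups did not overlap, but the wild-type arrays were spread over more than 1 unit, and the call was lost without Rptor cKO array 1 (-1.62, adjusted p = 0.0614), Rptor cKO array 2 (-1.34, adjusted p = 0.133) or wild-type array 6 (-1.63, adjusted p = 0.0769). It was lost also with trend and robust moderation (adjusted p = 0.0574).

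Cers2 (chromosome 3, 95314771 to 95323599), the widely expressed synthase of very-long-chain ceramides, read 6.73, 6.32 and 6.19 in Rptor cKO, against 5.50, 5.69 and 5.81 in wild type. It rose 1.67-fold (0.74, SE 0.15, adjusted p = 0.0203). Cers5 (chromosome 15, 99735592 to 99772515), whose upstream sequence is shown above and which makes ceramides of shorter chains, read 8.23, 8.09 and 8.05 in Rptor cKO, against 7.41, 7.59 and 7.70 in wild type. Its rise was 1.47-fold (0.56, SE 0.11, adjusted p = 0.0155). Both were higher in all 3 Rptor cKO arrays than in any wild-type array. Without Rptor cKO array 2 neither passed (Cers2 0.79, adjusted p = 0.0678, and Cers5 0.58, adjusted p = 0.0637), and Cers5 was also lost without Rptor cKO array 1 (0.51, adjusted p = 0.0508). Cers4 differed by 0.28 (SE 0.10, adjusted p = 0.147) with groups apart, and Cers6, another synthase of shorter chains, by 0.17 (SE 0.15, adjusted p = 0.550) with groups overlapping.

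**Figure D3:**
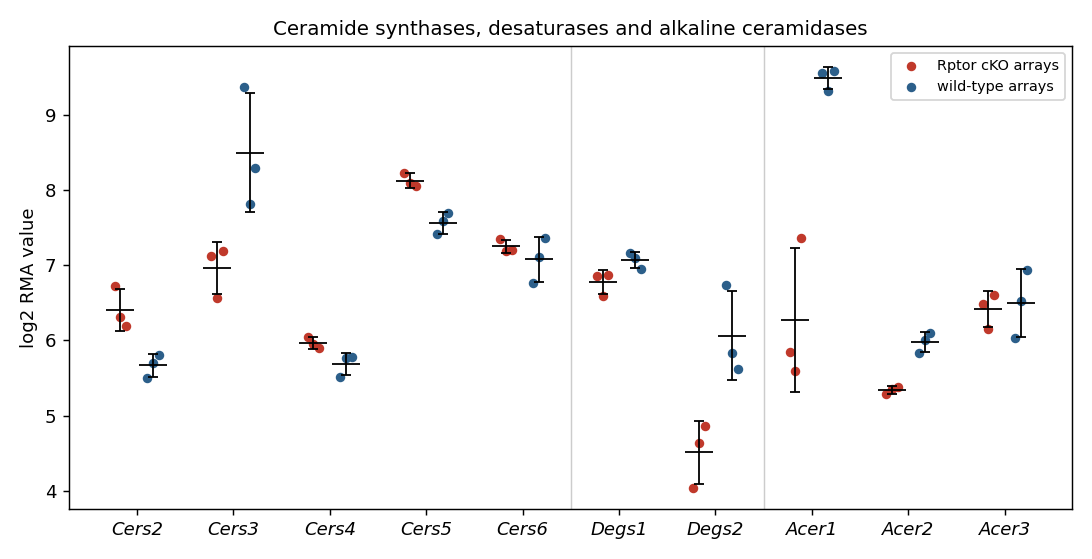
Log2 RMA values of the 5 ceramide synthases, the 2 desaturase family genes and the 3 alkaline ceramidases, with Rptor cKO arrays in red left of wild-type arrays in blue. Points are arrays, and black bars give mean and SD over 3 arrays. Cers3, Degs2 and Acer1 were lower in Rptor cKO, while Cers2 and Cers5 were higher and Cers6 and Acer3 overlapped.

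Of the desaturase family, 1 of 2 genes fell. Degs2 (chromosome 12, 108686792 to 108702306), the hydroxylase that makes phytoceramide, read 4.04, 4.63 and 4.86 in Rptor cKO, against 6.74, 5.83 and 5.62 in wild type. Rptor cKO array 1 lay under its negative control median. With that value raised to the median, Degs2 fell 2.89-fold (measured -1.55, SE 0.30, 95% interval -2.24 to -0.86, adjusted p = 0.0167). Without Rptor cKO array 2 it missed the threshold (-1.61, adjusted p = 0.0644). Degs1, the general dihydroceramide desaturase, read 6.86, 6.59 and 6.87 in Rptor cKO, against 7.16, 7.09 and 6.95 in wild type. The groups lay apart by a small gap, and the difference of -0.29 (95% interval -0.55 to -0.04, adjusted p = 0.154) did not pass. Fa2h, which hydroxylates the fatty acid of ceramide, read 4.57, 4.71 and 4.84 in Rptor cKO, against 4.86, 5.43 and 5.51 in wild type, and its difference of -0.56 (SE 0.17, adjusted p = 0.0842) did not pass. Without wild-type array 4, the lowest of that group, Fa2h was at -0.76 (adjusted p = 0.00908).

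Among the head group genes, Ugcg, which makes the glucosylceramide of lamellar granules, read 5.86, 5.70 and 5.98 in Rptor cKO, against 7.40, 6.36 and 6.46 in wild type. The groups lay apart, but the difference of -0.90 (SE 0.25, adjusted p = 0.0631) did not pass. It passed without wild-type array 4 (-0.56, adjusted p = 0.0283) or wild-type array 5 (-1.09, adjusted p = 0.0423). Smpd3 (chromosome 8, 106252548 to 106337965), a neutral sphingomyelinase, read 7.02, 6.76 and 7.48 in Rptor cKO, against 9.59, 8.03 and 8.12 in wild type. It fell 2.81-fold with an adjusted p just inside the threshold (-1.49, SE 0.39, adjusted p = 0.0493). That call was the least stable of the 20, lost in 9 of 14 alternatives, among them the fits without Rptor cKO array 1, 2 or 3 or wild-type array 6 (differences -1.46, -1.33, -1.68 and -1.72). Without wild-type array 4 it still passed, at a smaller difference of -0.98 (adjusted p = 0.0212).

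Neither sphingomyelin synthase passed. Sgms2, the synthase of the plasma membrane, read 5.29, 5.42 and 5.78 in Rptor cKO, against 4.57, 4.90 and 5.10 in wild type. It was higher in every Rptor cKO array and just missed the threshold (0.64, SE 0.17, adjusted p = 0.0504), passing in 3 of 14 alternatives. Sgms1, the synthase of the Golgi, differed by 0.11 (SE 0.11, adjusted p = 0.601) with overlapping groups.

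Ceramidases release sphingosine from ceramide. Acer1 (chromosome 17, 56953490 to 56982126), the alkaline ceramidase of differentiated keratinocytes, read 5.85, 5.59 and 7.36 in Rptor cKO, against 9.56, 9.32 and 9.59 in wild type. It had the largest fall of the 36 genes, 9.33-fold (-3.22, SE 0.40, adjusted p = 0.00352). Rptor cKO array 3 stood well above the other Rptor cKO arrays, and the wild-type arrays were close together. Acer2 (chromosome 4, 86874348 to 86932524), of the Golgi, read 5.29, 5.35 and 5.38 in Rptor cKO, against 5.83, 6.00 and 6.09 in wild type. Its fall was small and even, 1.55-fold (-0.63, SE 0.10, adjusted p = 0.00792). Acer3 differed by -0.08 (95% interval -0.59 to 0.42, adjusted p = 0.867).

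Sphingosine can be phosphorylated to the signal sphingosine 1-phosphate, recycled or degraded. Sphk1 (chromosome 11, 116530836 to 116536675), a sphingosine kinase, read 5.28, 5.18 and 5.54 in Rptor cKO, against 6.66, 6.44 and 6.38 in wild type. It fell 2.23-fold and had the smallest adjusted p of the 36 genes (-1.16, SE 0.13, adjusted p = 0.00216). Sgpp1 (chromosome 12, 75714248 to 75735729), the phosphatase that returns the signal to sphingosine, read 6.15, 5.36 and 6.57 in Rptor cKO, against 8.84, 7.80 and 7.89 in wild type. Its fall was 4.44-fold (-2.15, SE 0.35, adjusted p = 0.00896). So the kinase and the opposing phosphatase both fell.

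Sgpl1, the lyase that ends the pathway, read 6.85, 7.04 and 7.20 in Rptor cKO, against 8.70, 8.01 and 7.78 in wild type and fell by 1.14 (SE 0.22, adjusted p = 0.0163). Sphk2, the second kinase, fell by 0.47 (SE 0.11, adjusted p = 0.0287), and Sgpp2 differed by -0.41 (SE 0.18, adjusted p = 0.214) with overlapping groups. Without Rptor cKO array 2 the calls of Sgpl1 (-1.14, adjusted p = 0.0718) and Sphk2 (-0.49, adjusted p = 0.0996) were lost. Sphk2 was lost also without Rptor cKO array 1 (-0.40, adjusted p = 0.0853), wild-type array 4 (-0.45, adjusted p = 0.0717) or wild-type array 5 (-0.44, adjusted p = 0.0806), after quantile normalization (-0.38, adjusted p = 0.0602) and with trend and robust moderation (adjusted p = 0.0517).

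The acylceramide and lamellar granule genes lay lower in every Rptor cKO array than in any wild-type array, all 7 of them. Abhd5 (chromosome 9, 122351616 to 122381524), the cofactor of Pnpla1, read 6.69, 6.89 and 7.42 in Rptor cKO, against 8.76, 8.70 and 8.49 in wild type. It fell 3.14-fold (-1.65, SE 0.18, adjusted p = 0.00227). Cyp4f39 (chromosome 17, 32452697 to 32493320), which adds the omega-hydroxyl group to ultra-long fatty acids, read 6.66, 6.32 and 7.23 in Rptor cKO, against 8.29, 8.2 and 8.28 in wild type. Its fall was 2.88-fold (-1.53, SE 0.20, adjusted p = 0.00454). The wild-type arrays of both genes were closer to each other than those of the other 5 genes of the step.

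Pnpla1 (chromosome 17, 28858286 to 28890308), the transacylase that esterifies linoleate to ceramide, read 6.24, 5.91 and 7.30 in Rptor cKO, against 9.59, 8.46 and 8.46 in wild type, a 5.11-fold fall (-2.35, SE 0.40, adjusted p = 0.0101). Abca12 (chromosome 1, 71243090 to 71414910), the transporter that loads lipid into lamellar granules, read 7.51, 7.11 and 8.33 in Rptor cKO, against 10.53, 9.24 and 9.49 in wild type. It fell 4.31-fold (-2.11, SE 0.38, adjusted p = 0.0124). Sdr9c7, a dehydrogenase that acts on acylceramide before its binding to protein, fell 3.85-fold (-1.95, SE 0.37, adjusted p = 0.0150). Slc27a4, a fatty acid transport protein with acyl-CoA synthetase activity, fell 2.67-fold (-1.42, SE 0.25, adjusted p = 0.0117). In these 4 genes Rptor cKO array 3 was the highest of its group and wild-type array 4 the highest of its own. Nipal4, a membrane protein whose loss causes ichthyosis in humans, differed by -0.88 (SE 0.28) and did not pass (adjusted p = 0.0972). Without Rptor cKO array 2 the other 4 missed the threshold by little, with Pnpla1 at -2.07 (adjusted p = 0.0503), Abca12 at -1.84 (adjusted p = 0.0594), Slc27a4 at -1.39 (adjusted p = 0.0594) and Sdr9c7 at -1.75 (adjusted p = 0.0735).

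Lipk, Lipn and Lipm belong to a family of acid lipases and lie in that order on chromosome 19, from 34008254 at the start of Lipk to 34122687 at the end of Lipm. Lipk read 4.62, 4.45 and 5.37 in Rptor cKO, against 8.37, 6.79 and 6.90 in wild type. It fell 5.83-fold (-2.54, SE 0.41, adjusted p = 0.00891). Lipm read 6.74, 6.26 and 7.68 in Rptor cKO, against 9.86, 8.71 and 8.93 in wild type, and fell 4.85-fold (-2.28, SE 0.39, adjusted p = 0.0103). Lipn read 3.68, 3.87 and 4.27 in Rptor cKO, against 7.41, 5.64 and 5.94 in wild type, and fell at least 4.75-fold with values under the negative control median raised to it (measured -2.39, SE 0.41, adjusted p = 0.0103). All 3 were lower in every Rptor cKO array than in any wild-type array. Lipn was dimmer than the negative control median on 1 Rptor cKO array, and close to it on another. Without Rptor cKO array 2 its adjusted p was 0.0545 at a difference of -2.35, and that of Lipk was just under 0.05 at -2.36.

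Within families, the log2 value of one gene minus another was compared on each array. The level of a probe set cannot be set against that of another, so only the change of this quantity between groups has meaning. The quantity for Cers3 minus Cers2 was 0.40, 0.25 and 1.00 in Rptor cKO, against 3.87, 2.13 and 2.49 in wild type. That for Acer1 minus Acer3 was -0.64, -0.56 and 0.75 in Rptor cKO, against 3.53, 2.80 and 2.65 in wild type. For Degs2 minus Degs1 it was -2.82, -1.96 and -2.01 in Rptor cKO, against -0.42, -1.26 and -1.33 in wild type. Each of these lay lower in Rptor cKO with no overlap. Of 23 pairs within 8 families, 17 lay apart and 6 overlapped. The pairs share genes and 30 of the 36 genes lay apart by themselves, so the count is a description with no test.

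The arrays of a group were not alike in these genes. Among the 20 genes that fell, Rptor cKO array 3 had the highest value of its group for 20 of 20, against 81.6% of all 1791 genes that fell on the arrays and 29.5% of all genes tested. Wild-type array 4 was the highest of its group for 16 of 20, against 56.7% of all genes that fell and 33.9% of all genes tested. The median deviation of the 20 genes from the wild-type mean was -1.78, -1.87 and -1.23 on Rptor cKO arrays 1 to 3 and 0.66, -0.29 and -0.25 on wild-type arrays 4 to 6. These genes were picked by their fall, so low Rptor cKO values follow from the choice. Over all 36 genes the medians were -1.10, -1.11 and -0.75 in Rptor cKO and 0.16, -0.16 and -0.12 in wild type. Rptor cKO array 3 was then the highest of its group for 31 of 36, and wild-type array 4 for 22 of 36. For the 20 genes the median SD between arrays was 0.40 in Rptor cKO, against 0.57 in wild type. Over all genes tested it was 0.12 in Rptor cKO, against 0.13 in wild type. Without Rptor cKO array 3, 19 of the 36 genes fell, and without wild-type array 4, 22 did.

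Markers of the spinous layer and of the granular and cornified layers were lower along with these genes. The summed level of 6 spinous markers, on the linear scale, was 4031, 3297 and 10087 on the Rptor cKO arrays and 23213, 19135 and 21825 on the wild-type arrays. That of 8 granular and cornified markers was 3438, 3602 and 7591 in Rptor cKO, against 24290, 13871 and 15416 in wild type. Rptor cKO array 3 was the highest of its group in both sums, and wild-type array 4 of its own. All 6 spinous markers and 7 of 8 granular and cornified markers fell. The sum of 8 basal markers ran from 7197 to 9526 in Rptor cKO and from 8851 to 10706 in wild type, so the ranges overlapped. Of these markers 1 was lower, Krt15 (-2.31), and 2 were higher, Itgb4 (0.98) and Itgb1 (0.87). The median difference of the 8 was 0.22. The sum includes Krt15, and no sum without it was made. The part of layer composition in the falls was not tested, and on bulk sheets fewer cells of a layer and less RNA per cell cannot be told apart.

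**Figure D4:**
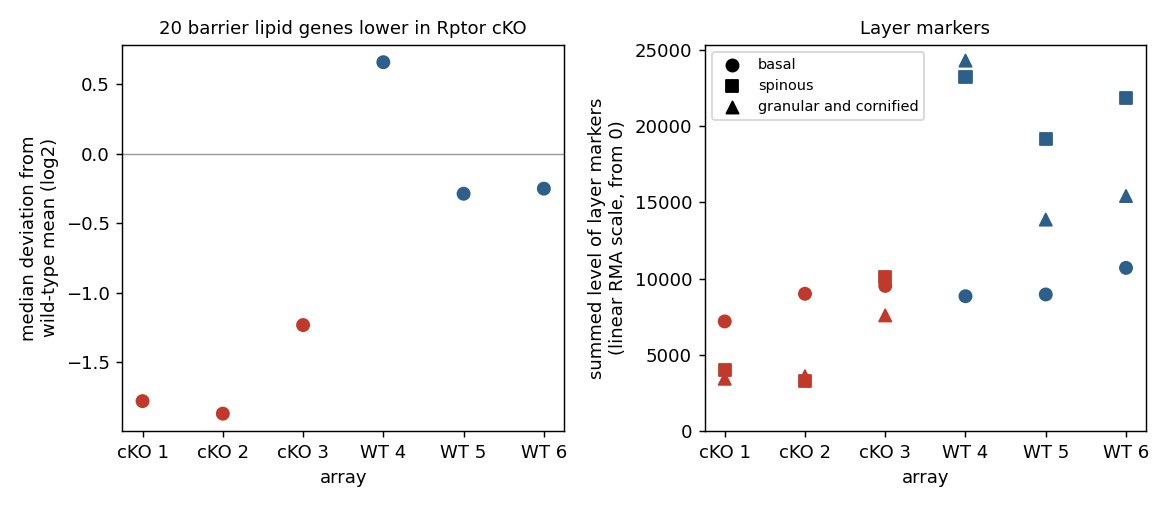
Left, the median deviation of the 20 genes that fell from their wild-type means on each array (log2). The genes were picked by their fall, so low Rptor cKO values there follow from the choice. Right, the summed linear level of 8 basal, 6 spinous and 8 granular and cornified markers on each array, with Rptor cKO arrays in red and wild-type arrays in blue. Rptor cKO array 3 and wild-type array 4 are the highest of their groups on the left and in the spinous and granular sums.

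Among markers of other cells, 5 of 6 dermal fibroblast genes rose, with a summed level of 702 to 937 in Rptor cKO, against 416 to 462 in wild type. Of 6 periderm genes 2 rose, Krt17 and Krt18 (2264 to 3894 in Rptor cKO, against 1794 to 2092 in wild type). Most of that sum was Krt17, a keratin also induced in stressed epidermis, and without it, a choice made after the values were seen, the sums overlapped (242, 604 and 588 in Rptor cKO, against 285, 400 and 258 in wild type). The periderm is the transient outermost layer of fetal skin. Of 6 Langerhans cell and macrophage genes 2 fell, Csf1r and Ptprc (187 to 218 in Rptor cKO, against 238 to 281 in wild type), but Ptprc was dimmer than the negative control median on all 3 Rptor cKO arrays and 1 wild-type array. Of 4 sebocyte genes 1 fell (108 to 133 in Rptor cKO, against 192 to 207 in wild type), and of 4 Merkel cell genes 1 fell (80.4 to 101 in Rptor cKO, against 104 to 120 in wild type). Among 6 endothelial genes 1 rose (88.6 to 100.4 in Rptor cKO, against 76.4 to 91.4 in wild type), and Kdr, Tek and Emcn were dimmer than the negative control median on every array. Of 6 melanocyte genes 1 rose (1365 to 2083 in Rptor cKO, against 905 to 1501 in wild type), and the ranges of both sums overlapped between the groups. None of 5 adipocyte genes passed (101 to 114 in Rptor cKO, against 98.1 to 116 in wild type), nor did any of 4 muscle genes (224 to 316 in Rptor cKO, against 156 to 233 in wild type). Alas2, the 1 red cell gene measured, did not pass either (34.6 to 48.1 in Rptor cKO, against 31.8 to 42.7 in wild type). The part of these cells in the results was not tested.

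Other genes of sphingolipid and barrier lipid metabolism, 42 listed and 40 measured, held 21 that fell, 1 that rose and 18 that did not pass, with a median difference of -0.66. Among all genes tested 5.96% fell and 3.64% rose, with a median of 0.05. As 20 of the 36 genes above fell, falls were not particular to those 36. Cptp, a transfer protein for ceramide 1-phosphate, fell 4.32-fold (-2.11, SE 0.28, adjusted p = 0.00448). Elovl7, an elongase of fatty acids, fell 4.94-fold (-2.31, SE 0.32, adjusted p = 0.00513). Asah2, the neutral ceramidase, fell 4.29-fold (-2.10, SE 0.32, adjusted p = 0.00704). Elovl3, another elongase, was dimmer than the negative control median on each Rptor cKO array and fell at least 2.02-fold, with each value raised to that median (measured -1.61, SE 0.23, adjusted p = 0.00567). The 1 gene that rose was Smpd4, a neutral sphingomyelinase (0.47, SE 0.11, adjusted p = 0.0302), which lost its call in each of 5 of the 6 fits that leave out an array (differences from 0.38 to 0.52). Without Rptor cKO array 2, 9 of the 40 were lower and none higher (limma, 24 and 3 at an unadjusted p under 0.05).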

How the data were processed

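Total RNA of 6 epidermal sheets was labelled with biotin using the Ambion Expression WT kit, per the labels' protocols. Values were deposited by the authors on the log2 scale, 1 for each probe set. RMA, Partek and the build mm10 appear in the submitters' processing notes. No source used here gives tool versions, slides, scan dates or detection calls, and batches of arrays were therefore not tested. RMA brings arrays to a like distribution, so a general change of RNA per cell cannot be seen.

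Of 72688 probe sets, 6732 were controls, 30604 named 1 gene, 2146 several and 33206 none. Symbols came from the platform annotation, which matched RefSeq by Entrez ID for 22818 probe sets. By that match or a unique synonym 1135 symbols were updated. This gave 30063 genes, 429 of them with several probe sets, of which the one with the highest mean was kept. The median of 5222 negative control probe sets, 3.81 to 4.11 on the arrays, served as a guide to dim values.

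The groups were compared by limma 3.58.1 (lmFit, then eBayes; R 4.3.3), two-sided, with 4.31 prior degrees of freedom and Benjamini-Hochberg adjustment over 30063 genes. Each SD covers 3 arrays, and an exact permutation test of 3 against 3 arrays cannot go below p = 0.1. Scaling, filtering, moderation, weights, probe set choice, left-out arrays and embryo sex were varied in 14 alternatives. The fit was tested on simulated data with known changes. It recovered 23.2% of log2 changes of 0.5, 78.8% of 1, 92.4% of 1.5 and 96% of 2. A gene that did not pass may therefore still differ. Coordinates are those of GRCm38.p6, the assembly of mm10. Plots used matplotlib 3.10.9 in Python 3.11.15.

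The genes and lists were chosen with earlier results of these data known. Values on every array are given for the 2 genes of each step with the smallest p and for genes that rose, and for others singled out after their values were seen. Of the 42 further lipid genes, up to 4 with the smallest p in each direction are named. The labels call the samples of a group biological replicates.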

Additional observations from a re-analysis of the deposited data

How the results depend on the processing

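No paired analysis was possible because the groups share no replicate numbers. Of 503 values of the 36 genes under 14 alternatives, 432 kept their side of the threshold, 63 lost a call and 8 gained one, and no called value changed sign. Only genes that passed in the main fit could lose a call, and the 503 values also count the 14 that did not pass. An ordinary linear model without variance moderation called none of the 36 genes lower or higher, and none of the 40 further lipid genes in either direction. At an unadjusted p under 0.05 that model had 19 of the 36 lower and 5 higher, and 21 and 1 of the 40. It called 8 of all genes, against 2886 with moderation. With male arrays alone, 11 of the 36 were lower and 0 higher (limma, 24 and 3 at an unadjusted p under 0.05), 14 of the 40 were lower and 0 higher (27 and 2 unadjusted), and 867 of all genes passed. Leaving out 1 array at a time gave 9 to 22 of the 36 lower and 0 to 2 higher, and 9 to 22 of the 40 lower and 0 to 1 higher. The median of the 36 genes ran from -1.16 to -0.81 over these fits. All genes passing numbered 900 without Rptor cKO array 2 and 1854 without Rptor cKO array 1. Under the scaling, filter, probe set and weight alternatives, 18 to 20 of the 36 were lower and 2 or 3 higher, and with trend and robust moderation 17 and 3. Each of the 36 genes had 1 probe set, so the probe set alternative could not change their values. It is no check on them, though the 503 values include it. Sptssb, Lipn, Degs2, Elovl3 and Ptprc had values near or under the negative control median, where differences are less sure. The same held for the fibroblast marker Lum and the endothelial marker Pecam1, which rose, and for the sebocyte marker Awat1, which fell. Negative controls had 95th percentiles of 7.46 to 8.07, so no sharp limit of detection can be set.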
